A study of Mus musculus with 6 samples.

Results

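The 10 genes Tbx21, Eomes, Prdm1, Zeb2, Id2, Bhlhe40, Irf4, Batf, Nfil3 and Bcl6 encode transcription regulators that steer T cells toward effector or memory states. They were taken by gene name from a list of such regulators. This list and those set beside it below were chosen with earlier results of these data known, so their counts are descriptive. Each of the 10 genes matched 1 of the 54532 genes of the deposited table. Their mRNA was compared between 3 WT libraries (WT 1, WT 2, WT 3) and 3 KO libraries (KO 1, KO 2, KO 3), where WT and KO are the states of Phf6 that the labels give. All 6 came from bone marrow (BM) of C57BL/6 mice at day 100 after transplantation of cells carrying JAK3 M511I, an activating change in a kinase that signals for cytokine receptors sharing the common gamma chain. By the study's methods, lineage-negative BM cells of Phf6 fl/y males without Cre (WT) or of Vav1-Cre;Phf6 fl/y males (KO) were given the JAK3 change together with GFP by retrovirus and put into irradiated male recipients. Donors and recipients were of the same age. Vav1-Cre acts in hematopoietic cells from the embryo on, so the deletion was present before the retrovirus was introduced. The study also used an Mx1-Cre system, and its results text and figure legends assign the transcriptome comparison to Vav1-Cre. The genotype labels name Phf6, Phf7 and Phf8 within each group, whereas Phf6 alone stands in the series' own design line. Sorting of GFP+ cells before RNA extraction is not stated, and cells of the recipient may remain.

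When a naive T cell meets antigen, cytokine signals through JAK and STAT proteins and signals from the T cell receptor raise a set of transcription factors that open cytotoxic and inflammatory genes. T-bet (Tbx21) and Eomes are paired T-box factors of cytotoxic lymphocytes, Blimp-1 (Prdm1) and Zeb2 drive terminal differentiation, and Id2 restrains the E proteins that keep progenitors immature. Bcl6 is the classical antagonist of Blimp-1 and favours follicular helper and memory fates. Most of these genes are not confined to T cells: NK cells use Tbx21, Eomes, Nfil3, Id2 and Zeb2, plasma cells use Prdm1 and Irf4, and germinal center B cells use Bcl6.

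Phf6 itself had 7.47, 3.67 and 8.02 FPKM in WT 1, WT 2 and WT 3 and 6.73, 5.50 and 5.11 in KO 1, KO 2 and KO 3 (limma, adjusted p = 0.893), and the groups overlapped. The value covers the whole gene whereas loxP sites flank only some of its exons, so it does not check the labels, and WT and KO are used as the labels give them. WT 2 stood apart, with 17.1% of its reads in genes under 1000 bases where the remaining 5 had 3.11% to 5.01%. Immunoglobulin segments took 2.08% of its reads, and 0.00665% to 1.16% elsewhere. Erythroid markers (4 listed, 3 tested, 0 past the threshold by limma or by voom, 1 lower at an unadjusted p under 0.05) summed to 81.2, 42044 and 327 FPKM in WT and to between 6.71 and 77.4 in KO, and Klf1 and Hba-a1 were highest in WT 2 at 25.8 and 38784 FPKM. Depth lay between 13015823 and 18235095 recovered reads per library.

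The level of most of these factors was far lower in the KO libraries. Of the 10 genes, 7 were lower past the threshold (Tbx21, Eomes, Prdm1, Zeb2, Bhlhe40, Batf and Nfil3), 0 were higher, and 3 (Id2, Irf4 and Bcl6) did not pass. Over the 13393 genes tested by limma on log2(FPKM + 1), with Benjamini-Hochberg adjustment and a threshold of 0.05, 13.3% were lower in KO, 13.1% were higher and 26.4% passed in either direction. In numbers this was 1785 lower and 1754 higher, against 1081 lower and 2279 higher after rescaling to TPM. FPKM counts fragments per unit of gene length and of the library size that the authors used. Recovered reads came to 1.55 times that size in WT 2 and to between 0.827 and 0.994 times elsewhere. The median log2 fold change of the 10 genes, KO minus WT, was -1.80, against 0.09 for all genes tested. The KO and WT values of 8 of the 10 did not overlap, which was so for 49.1% of all genes tested. At an unadjusted limma p under 0.05, 0 of the 10 were higher and 8 lower, and voom on recovered reads called 0 higher and 6 lower. Without WT 2 the limma count was 8 lower and 0 higher. Summed over the 10 genes, FPKM was 190, 192 and 198 in WT 1, WT 2 and WT 3, and 59.5, 53.9 and 47.8 in KO 1, KO 2 and KO 3. The filter, which asked for 3 or more of the 6 libraries at 1 FPKM or above, was passed by all 10 genes. The WT libraries carried 5 of them past it: Eomes and Zeb2 reached 1 FPKM in no KO library, and Tbx21, Prdm1 and Irf4 in fewer than 3. The count and median of the 10 are therefore not independent of the filter. Of the 5 genes at 1 FPKM or above in all 6 libraries, Bhlhe40, Batf and Nfil3 were lower, and Id2 and Bcl6 did not pass the threshold. The labels do not say that the samples came from separate animals, so p-values measure the spread between these samples. In bulk RNA, fewer cells of a type and less RNA per cell cannot be told apart.

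**Figure D1:**
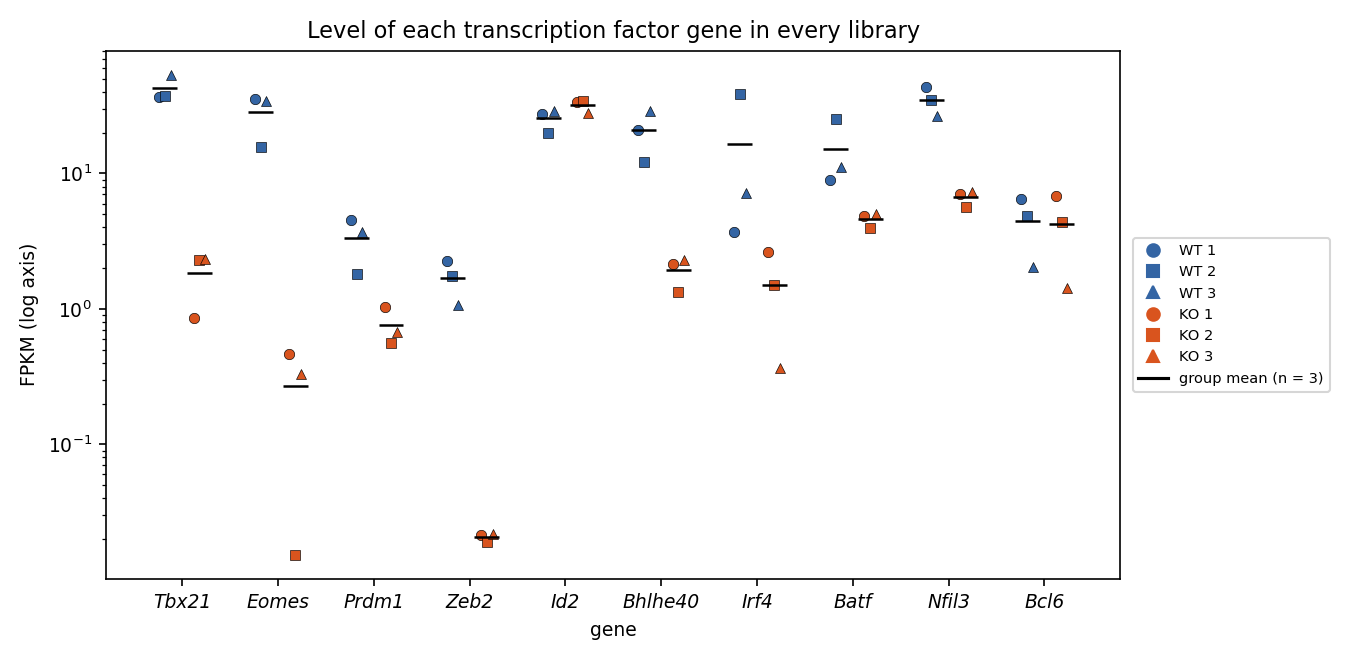
FPKM of each of the 10 genes on a log axis, with 1 symbol per library (blue WT, orange KO) and a bar at each group mean (n = 3). The WT and KO symbols overlap for Id2 and Bcl6, and the other 8 genes lie lower in KO, down to a mean of 0.0208 FPKM for Zeb2.

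Sequence upstream of the start site is shown for genes of contrasting behaviour: Tbx21, Eomes and Zeb2, which were lower past the threshold under each alternative in which they were tested, Prdm1, and Bcl6, which did not pass the test. Of the 10 genes, 9 had entries in the RefSeq promoter table of build GRCm38.p6, with 13 entries in all. Each line gives the 250 bases before an annotated start, 5′ to 3′ on the strand of the gene, and capitals mark letters that match a motif searched on both strands. The windows are chr11:97115332-97115581 (minus strand) for Tbx21, chr9:118477939-118478188 (plus strand) for Eomes, chr2:45117443-45117692 (minus strand) for Zeb2, chr10:44458749-44458998 (minus strand) for Prdm1 and chr16:23988853-23989102 (minus strand) for Bcl6. Those of Tbx21, Eomes, Zeb2 and Bcl6 lie outside annotated genes, and that of Prdm1 lies within an intron of Prdm1 and touches no exon.
Tbx21: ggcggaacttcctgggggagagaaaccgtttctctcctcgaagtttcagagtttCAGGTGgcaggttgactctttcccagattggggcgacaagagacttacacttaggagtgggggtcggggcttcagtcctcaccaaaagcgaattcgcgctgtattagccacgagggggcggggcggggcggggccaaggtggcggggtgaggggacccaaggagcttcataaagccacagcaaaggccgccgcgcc
Eomes: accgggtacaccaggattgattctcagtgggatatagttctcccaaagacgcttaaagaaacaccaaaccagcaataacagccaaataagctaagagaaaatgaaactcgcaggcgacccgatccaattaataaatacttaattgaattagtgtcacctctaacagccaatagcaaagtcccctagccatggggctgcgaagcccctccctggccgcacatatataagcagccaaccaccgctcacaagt
Zeb2: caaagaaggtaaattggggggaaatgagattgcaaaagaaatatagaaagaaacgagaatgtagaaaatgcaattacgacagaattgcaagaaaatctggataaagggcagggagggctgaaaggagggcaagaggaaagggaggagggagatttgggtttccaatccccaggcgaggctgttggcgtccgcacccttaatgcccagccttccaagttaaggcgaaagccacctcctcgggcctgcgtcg
Prdm1: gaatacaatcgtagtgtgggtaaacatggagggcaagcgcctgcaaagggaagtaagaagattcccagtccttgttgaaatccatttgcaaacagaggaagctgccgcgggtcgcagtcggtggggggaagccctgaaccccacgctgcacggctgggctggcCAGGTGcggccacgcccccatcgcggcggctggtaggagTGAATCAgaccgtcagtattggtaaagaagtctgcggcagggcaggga
Bcl6: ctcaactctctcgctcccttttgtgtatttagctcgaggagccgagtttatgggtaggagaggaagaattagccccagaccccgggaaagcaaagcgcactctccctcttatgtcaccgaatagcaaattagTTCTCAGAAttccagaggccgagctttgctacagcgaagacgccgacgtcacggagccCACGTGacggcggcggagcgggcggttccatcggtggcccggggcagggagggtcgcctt

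The motifs searched were tied to most of the 10 factors, and none was chosen for Irf4 or Id2. They were T-box TCACACCT, E-box CACGTG (the Bhlhe40 type), E2-box CACCTG (the Zeb2 type) and AP-1 TGANTCA (the Batf type). The others were TTCNNNGAA (shared by STAT proteins and Bcl6), TTACGTAA (Nfil3) and GAAAGTGAA (the Blimp-1 type). Counting back from the start, with the last base at -1, the Tbx21 window held the E2-box with its first base at -196. The Prdm1 window held an E2-box at -87 and an AP-1 motif, TGAATCA, at -48. The Bcl6 window held an E-box at -60 and TTCTCAGAA at -118. None of the 7 motifs stood in the windows printed for Eomes and Zeb2. Other entries of Zeb2, not printed, held TTCTGTGAA and the AP-1 motifs TGAGTCA and TGACTCA. The other entry of Bcl6, not printed either, held TTCCTGGAA, TTCTGTGAA and TTCCGGGAA. Among 32851 promoters of the table the share with a match was 17.2% for the E2-box, 7.02% for TTCNNNGAA, 6.75% for AP-1, 6.02% for the E-box, 1.12% for the T-box, 0.481% for GAAAGTGAA and 0.113% for TTACGTAA. With all entries counted, 4 of the 9 genes that had an entry (Tbx21, Prdm1, Zeb2 and Bcl6) had a match, and Bhlhe40 had no entry. The share of all promoters with any of the 7 motifs was not computed, so this count has no background beside it.

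Tbx21 (ENSMUSG00000001444, GRCm38 chr11:97098071-97115331, minus strand) encodes T-bet, the T-box factor of type 1 helper, cytotoxic and NK cells. Its FPKM was 36.8, 37.2 and 53.5 in WT 1, WT 2 and WT 3, and 0.863, 2.30 and 2.35 in KO 1, KO 2 and KO 3. All KO libraries were far below all WT libraries, with the lowest level in KO 1. The mean was 42.5 ± 9.58 FPKM in WT and 1.84 ± 0.843 in KO (SD, n = 3 each), 23.1-fold lower, and the log2 fold change was -3.97 (SE 0.33, 95% interval -4.75 to -3.18, limma, adjusted p = 0.000553). Behind these values stood 1087 to 2065 reads per WT library and 40 to 94 per KO library. Ranked within its library among the genes tested, Tbx21 fell from between percentiles 85.5 and 93.9 in WT to between 9.21 and 25.6 in KO.

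Eomes (ENSMUSG00000032446, chr9:118478212-118486132, plus strand), the second T-box factor of cytotoxic lymphocytes and one linked to memory, was lower as well. Its FPKM was 35.6, 15.6 and 34.6 in WT 1, WT 2 and WT 3, and 0.465, 0.0153 and 0.329 in KO 1, KO 2 and KO 3. Levels in WT 1 and WT 3 were alike and that in WT 2 was lower, while no KO library came near them. The mean was 28.6 ± 11.3 FPKM in WT and 0.270 ± 0.231 in KO (SD, n = 3 each), 106-fold lower, with 36, 1 and 22 reads in the KO libraries. The log2 fold change was -4.47 (SE 0.38, 95% interval -5.39 to -3.56, limma, adjusted p = 0.000613), and the pseudocount of 1 holds it down: voom on the recovered reads gave -7.46. The antisense gene Gm33460, which overlaps Eomes on the other strand, read 3.26, 6.03 and 3.97 FPKM in WT and 0.200, 0 and 0 in KO. Use of strand in the counting is not stated, so reads of Eomes and Gm33460 cannot be told apart. The log2 ratio of Tbx21 to Eomes within a library was 0.05, 1.25 and 0.63 in WT and 0.77, 4.38 and 2.51 in KO. The groups overlapped in this ratio, and the difference of 1.91 had p = 0.2 (exact permutation test, two-sided, smallest possible p 0.1). It was 0.50 at a pseudocount of 1 in place of 0.1, and 1.00 without KO 2, where Eomes had 1 read.

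NK cell markers differed too. Of 5 NK markers 4 were tested, of which 3 (Klrb1c, Klrk1 and Klre1) were lower and 1, Gzma, was higher. Ncr1, which encodes the NK receptor NKp46, had 5.55, 0.884 and 6.95 FPKM in WT and 0.139, 0.0825 and 0.0403 in KO. Klrb1c lay between 14.3 and 44.7 FPKM in WT and between 0.236 and 0.780 in KO, and Klrk1 between 38.7 and 101 in WT and between 0.0973 and 0.735 in KO. Their summed level nevertheless rose from between 117 and 180 FPKM to between 566 and 617, nearly all of it Gzma. T cell markers were present in every library, with a sum of 727 to 1660 FPKM in WT and 621 to 762 in KO. Of these 7 markers 2 (Trac and Cd5, named after their values were seen) were lower and 5 did not pass, among them the CD3 chains Cd3e (log2 fold change 0.40), Cd3d (-0.42) and Cd3g (-0.01). The part of NK cells in the lower Tbx21 and Eomes was not tested.

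Prdm1 (ENSMUSG00000038151, chr10:44437177-44528501, minus strand) encodes Blimp-1, a repressor needed by terminal effector T cells and by plasma cells. Its FPKM was 4.52, 1.81 and 3.68 in WT 1, WT 2 and WT 3, and 1.03, 0.558 and 0.679 in KO 1, KO 2 and KO 3. The groups were separate, though WT 2 stood closer to KO 1 than to WT 1. The mean was 3.34 ± 1.38 FPKM in WT and 0.756 ± 0.245 in KO (SD, n = 3 each), 4.42-fold lower, and the log2 fold change was -1.26 (SE 0.30, 95% interval -1.99 to -0.53, limma, adjusted p = 0.0251). The call held in 8 of the 15 alternatives in which Prdm1 was tested, and it was lost under TPM, without the low-value filter, and on leaving out any library other than WT 2. Of 5 plasma cell markers 4 were tested, of which 2 (Jchain and Xbp1) were lower and 2 (Sdc1 and Mzb1) did not pass, and the sum of the 5 was 143 to 532 FPKM in WT and 33.5 to 42.3 in KO. Jchain, the joining chain of secreted antibody, had 91.1, 383 and 286 FPKM in WT and 4.88, 3.23 and 0.913 in KO. Sdc1 lay between 1.12 and 5.09 FPKM in WT and between 3.23 and 5.24 in KO, and Mzb1 between 6.59 and 88.2 in WT and between 7.93 and 17.98 in KO. WT 2 was the highest WT library for these plasma cell markers. Their part in the Prdm1 result was not tested.

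Zeb2 (ENSMUSG00000026872, chr2:44983632-45117395, minus strand), a zinc finger repressor induced by T-bet in terminal effector CD8 T cells, was close to undetected in KO. Its FPKM was 2.25, 1.74 and 1.06 in WT 1, WT 2 and WT 3, and 0.0215, 0.0191 and 0.0218 in KO 1, KO 2 and KO 3. The WT libraries varied among themselves, whereas the KO libraries were nearly equal and far below. In reads this was 692, 408 and 329 against 8, 6 and 7. The mean was 1.68 ± 0.594 FPKM in WT and 0.0208 ± 0.00148 in KO (SD, n = 3 each), 80.9-fold lower. Because the values are low, the log2 fold change of -1.37 on the log2(FPKM + 1) scale (SE 0.21, limma, adjusted p = 0.00473) understates this, and it was -3.83 at a pseudocount of 0.1 and -6.22 by voom. Zeb2os, which overlaps it in antisense, was at 0 in the 3 KO libraries. Monocytes and macrophages also express Zeb2, and of their 6 markers 5 were tested and 4 were lower, with sums of 588 to 4964 FPKM in WT and 12.7 to 26.3 in KO. Csf1r had 12.3, 15.9 and 2.46 FPKM in WT and 0.187, 0.247 and 0.102 in KO, Lyz2 288.9 to 4544 in WT and 2.53 to 14.1 in KO, and Ccr2 9.51 to 24.2 in WT and 0.846 to 1.25 in KO. Their part in the Zeb2 result was not tested. The related gene Zeb1 had 7.89, 2.54 and 8.28 FPKM in WT and 14.2, 12.97 and 10.5 in KO (log2 fold change 1.02, limma, adjusted p = 0.130). The log2 ratio of Zeb2 to Zeb1 went from -1.71 ± 1.17 in WT to -6.70 ± 0.232 in KO (SD, n = 3 each). The groups did not overlap, at the smallest p the exact permutation test allows (0.1, adjusted p = 0.3 over 9 ratios). Zeb2 in KO lay below the added 0.1, so the KO ratio and its spread depend on the pseudocount. The difference in this ratio was -4.99, and -2.39 at a pseudocount of 1 in place of 0.1.

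Id2 (ENSMUSG00000020644, chr12:25093799-25097140, minus strand) encodes an inhibitor that binds E proteins and has no DNA-binding domain of its own. Its FPKM was 27.4, 20.0 and 29.0 in WT 1, WT 2 and WT 3, and 33.7, 34.2 and 27.9 in KO 1, KO 2 and KO 3. The groups overlapped, since KO 3 lay below WT 3. The mean was 25.5 ± 4.79 FPKM in WT and 31.9 ± 3.47 in KO (SD, n = 3 each), and the log2 fold change of 0.33 (SE 0.25, 95% interval -0.27 to 0.93) did not pass (limma, adjusted p = 0.387). Id2 kept its rank, between percentiles 76.3 and 90.6 in all 6 libraries. Its relatives were scattered: Id1 had 5.42, 27.4 and 2.95 FPKM in WT and 52.4, 63.2 and 22.8 in KO (log2 fold change 2.28, limma, adjusted p = 0.0776), and Id3 had 0.579, 11.4 and 0.756 in WT and 14.1, 11.03 and 3.81 in KO (1.56, limma, adjusted p = 0.249). Neither passed, and in both WT 2 was the highest of the WT libraries. The difference in the log2 ratio of Id2 to Id3, -1.84, had p = 0.4 (exact permutation test) and moved to -3.31 with WT 2 left out, to -1.04 with WT 1 left out and to -1.17 with WT 3 left out.

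**Figure D2:**
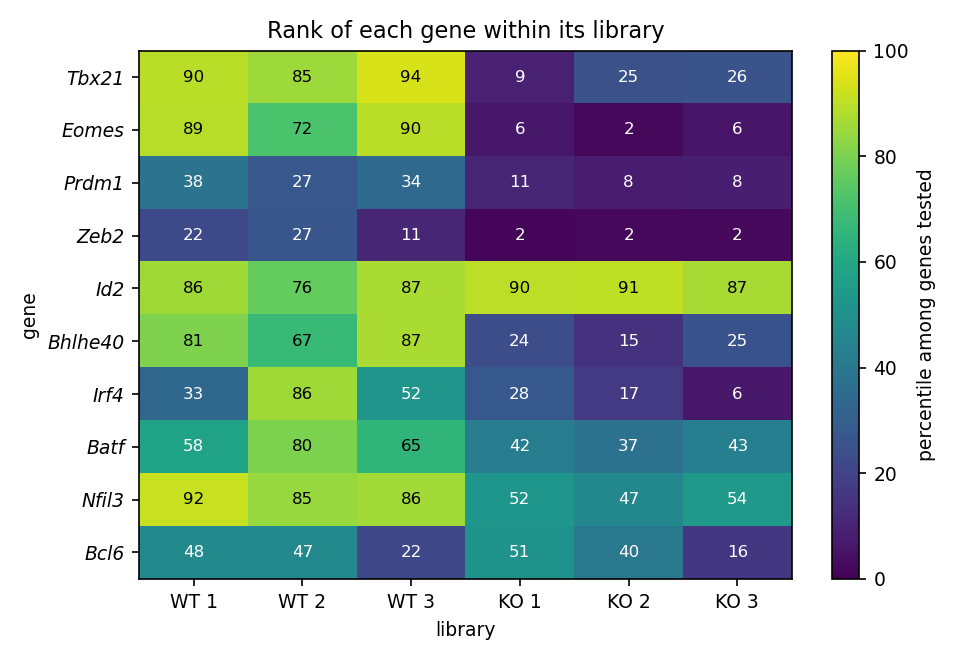
Percentile of each gene among the 13393 genes tested, within each library (columns), from 0 (lowest FPKM) to 100 (highest). Id2 stays between 76.3 and 90.6 in all 6 libraries, while Tbx21 ranks at 85.5 or above in WT and at 25.6 or below in KO.

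Bhlhe40 (ENSMUSG00000030103, chr6:108660629-108666925, plus strand) is a basic helix-loop-helix repressor that T cells raise on activation and that supports their cytokine output. Its FPKM was 21.0, 12.1 and 29.1 in WT 1, WT 2 and WT 3, and 2.15, 1.32 and 2.30 in KO 1, KO 2 and KO 3. Every WT library lay well above every KO library. The mean was 20.8 ± 8.48 FPKM in WT and 1.92 ± 0.524 in KO (SD, n = 3 each), 10.8-fold lower, with a log2 fold change of -2.83 (SE 0.36, limma, adjusted p = 0.00254). Among the alternatives the call was lost under TPM alone (-2.41, limma, adjusted p = 0.0563). Its paralog Bhlhe41 had 7, 68 and 18 reads in WT and 0 in each KO library. Set against a floor of 3 reads per KO library this was at least 13.8-fold lower, and at least 4.50-fold lower without WT 2 (an alternative chosen after seeing the data), though the gene was too low to be tested. With no Bhlhe41 read in KO, a ratio of the pair is set by the pseudocount and is not given. The overlapping antisense gene 0610040F04Rik was at 0 in 5 libraries and at 0.0289 FPKM in KO 3.

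Irf4 and Batf act together: the proteins bind joint AP-1 and IRF elements that open chromatin after T cell receptor signals. Irf4 (ENSMUSG00000021356, chr13:30749226-30766976, plus strand) had 3.71, 38.5 and 7.12 FPKM in WT 1, WT 2 and WT 3, and 2.62, 1.503 and 0.367 in KO 1, KO 2 and KO 3. The groups did not overlap, but WT 2 was far above all others and WT 1 was close to KO 1. The mean was 16.4 ± 19.2 FPKM in WT and 1.496 ± 1.12 in KO (SD, n = 3 each). The log2 fold change of -2.31 (SE 0.82, 95% interval -4.27 to -0.35) did not pass (limma, adjusted p = 0.0850). With WT 2 left out it was -1.42 and passed (limma, adjusted p = 0.0421), and with array weights it was -1.18 and passed (limma, adjusted p = 0.0195).

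Batf (ENSMUSG00000034266, chr12:85686669-85709087, plus strand) encodes the AP-1 family partner. Its FPKM was 8.99, 25.3 and 11.2 in WT 1, WT 2 and WT 3, and 4.81, 3.93 and 5.04 in KO 1, KO 2 and KO 3. WT 2 was again the highest, the KO libraries were close together, and the groups did not overlap. The mean was 15.2 ± 8.84 FPKM in WT and 4.59 ± 0.585 in KO (SD, n = 3 each), 3.30-fold lower, with a log2 fold change of -1.40 (SE 0.40, limma, adjusted p = 0.0432). It passed in 8 of 16 alternatives, with -0.99 without WT 2 (limma, adjusted p = 0.00528) and -0.71 under TPM (limma, adjusted p = 0.175). The replicate block (adjusted p = 0.0830, limma), voom (adjusted p = 0.0553, limma), no filter and leaving out WT 3 or any KO library also took the call away.

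WT 2, the highest library for Irf4 and Batf, was also the highest for markers of several other lineages. B cell markers summed to 11.1, 977 and 17.0 FPKM in WT 1, WT 2 and WT 3 and to between 0.906 and 1.11 in KO, and of the 3 tested of 5 listed 0 passed by limma or by voom, 2 were lower at an unadjusted p under 0.05 and 3 passed without WT 2. Of the listed genes, Cd79a had 4.54, 286 and 9.39 FPKM in WT and at most 0.737 in KO, and Ms4a1 0.649, 11.7 and 0.480 in WT and at most 0.0103 in KO, where KO 3 was at 0. WT 2 thus stood apart from the other WT libraries for every B cell marker named. Basophil and mast cell markers summed to 18.2, 2582 and 10.6 FPKM in WT and to between 0.188 and 0.837 in KO, where 2 of 4 were tested and 0 passed by limma or by voom (2 lower at an unadjusted p under 0.05). In WT 2 the level was 2137 FPKM for Mcpt8, 151 for Cpa3 and 279 for Fcer1a. Dendritic cell markers, of which 0 of 5 were tested, summed to 1.84, 18.5 and 0.480 FPKM in WT and to between 0.165 and 0.395 in KO. Siglech, a marker of plasmacytoid dendritic cells, was at 15.9 FPKM in WT 2 and at 0 in all KO libraries, whereas Zbtb46 did not exceed 0.180 and Xcr1 did not exceed 0.439 in any library. The part of these cells in the Irf4 and Batf values was not tested. The relatives Irf8 and Batf3 peaked in WT 2 as well. Irf8 had 5.75, 27.2 and 3.05 FPKM in WT and 0.700, 0.684 and 1.33 in KO (log2 fold change -2.28, limma, adjusted p = 0.0551). Batf3 had 0.203, 2.88 and 0.242 FPKM in WT and 0.0336, 0.239 and 0.0389 in KO, too low to be tested. Within libraries the log2 ratio of Irf4 to Irf8 differed by 0.03 between the groups (p = 1) and that of Batf to Batf3 by 0.31 (p = 0.5, exact permutation tests).

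Nfil3 (ENSMUSG00000056749, chr13:52967209-52981073, minus strand) encodes a bZIP repressor required for NK cell development and regulating cytokine genes in T cells. Its FPKM was 43.3, 34.6 and 26.8 in WT 1, WT 2 and WT 3, and 7.07, 5.64 and 7.36 in KO 1, KO 2 and KO 3. The groups were well separated, and the KO libraries were close together. The mean was 34.9 ± 8.26 FPKM in WT and 6.69 ± 0.919 in KO (SD, n = 3 each), 5.22-fold lower, with a log2 fold change of -2.20 (SE 0.26, limma, adjusted p = 0.00200). Among the alternatives only TPM ended the call (-1.49, limma, adjusted p = 0.0713). Neutrophils also express Nfil3, and 6 of 6 neutrophil markers were lower, with sums of 3768 to 52601 FPKM in WT and 49.2 to 152 in KO. S100a8 had 8503, 33166 and 1725 FPKM in WT and 21.9, 67.1 and 77.1 in KO, Ly6g 15.4 to 111 in WT and 0.114 to 0.528 in KO, and Camp 476 to 7299 in WT and 6.80 to 21.1 in KO. The part of neutrophils in the Nfil3 result was not tested.

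Bcl6 (ENSMUSG00000022508, chr16:23965052-23988852, minus strand), the repressor opposed to Blimp-1, did not differ detectably. Its FPKM was 6.47, 4.89 and 2.05 in WT 1, WT 2 and WT 3, and 6.82, 4.399 and 1.43 in KO 1, KO 2 and KO 3. The groups overlapped over nearly their whole ranges. The mean was 4.47 ± 2.24 FPKM in WT and 4.21 ± 2.70 in KO (SD, n = 3 each), and the log2 fold change of -0.13 had a 95% interval of -1.41 to 1.16 (limma, adjusted p = 0.885). This interval leaves room for a change of more than 1 log2 unit either way. Gm37419, a protein-coding gene on the other strand, overlaps Bcl6 and had 3.73 to 6.25 FPKM in WT and 0.545 to 6.69 in KO. The log2 ratio of Prdm1 to Bcl6 was -0.51, -1.38 and 0.81 in WT and -2.61, -2.77 and -0.97 in KO, which overlapped through KO 3. Its difference of -1.76 had p = 0.2 (exact permutation test, adjusted p = 0.36 over the 9 ratios computed).

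**Figure D3:**
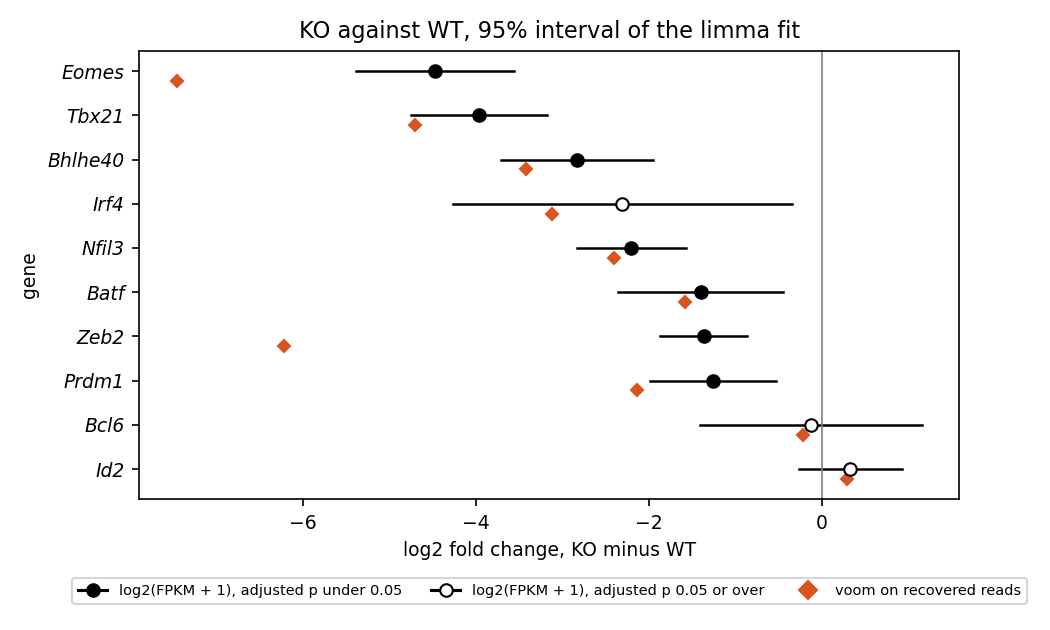
Log2 fold change, KO minus WT, of the 10 genes on the log2(FPKM + 1) scale with the 95% interval of the limma fit (circles, filled where the adjusted p was under 0.05), and the voom estimate on recovered reads (diamonds). The estimates run from -4.47 for Eomes to 0.33 for Id2, and the 2 scales differ most for Zeb2 (-1.37 against -6.22) and Eomes (-4.47 against -7.46).

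Across settings, 8 of the 10 genes (all but Id2 and Bcl6) were lower in KO under every alternative tried in which they were tested, and 3 (Tbx21, Eomes and Zeb2) also stayed past the threshold. Rescaling to TPM moved the median over all genes tested from 0.09 to 0.86 and left 3 of the 7 calls. Relative to that median, the TPM log2 fold changes were -5.85 for Eomes, -4.46 for Tbx21, -3.26 for Bhlhe40, -2.97 for Zeb2, -2.87 for Irf4, -2.35 for Nfil3, -1.94 for Prdm1, -1.57 for Batf, -0.27 for Bcl6 and 0.30 for Id2. The direction of each gene relative to the median was therefore the same on both scales, whereas Bcl6 before that subtraction was 0.59 under TPM. Leaving out each library in turn gave between 5 and 8 members lower, of which 8 came from omitting WT 2, 6 from omitting WT 1 and 5 for each other library left out.

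**Figure D4:**
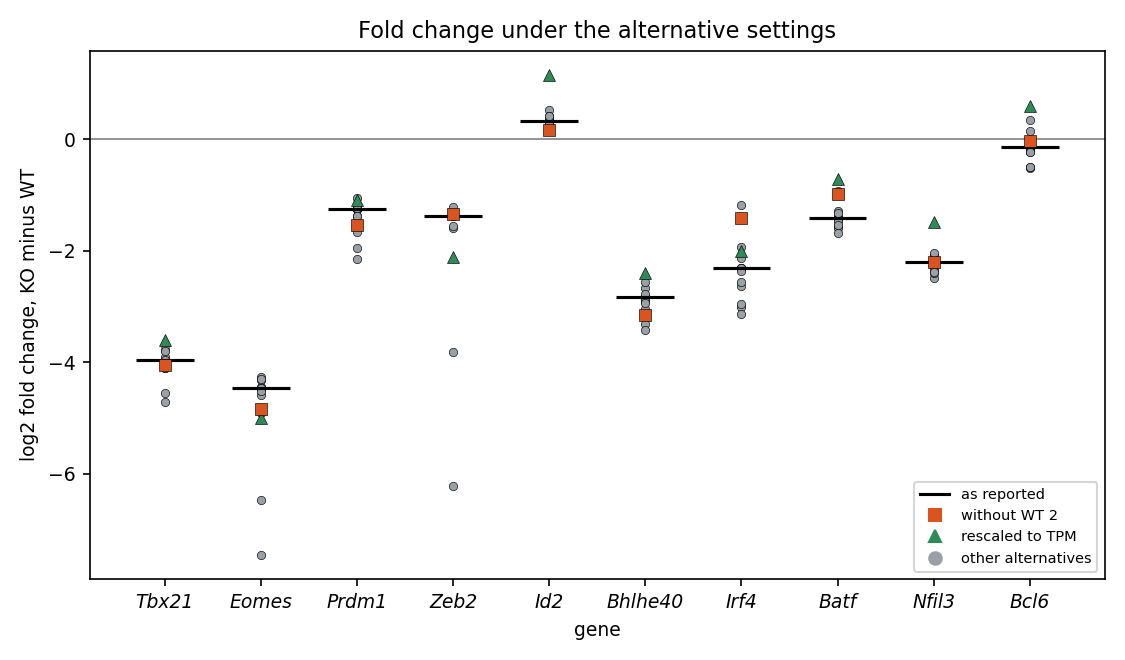
Log2 fold change of each gene as reported (bar) and under the alternative settings (points), with the fit without WT 2 and the TPM scale set apart by colour and shape. Points for Tbx21, Eomes, Bhlhe40 and Nfil3 lie at -1.49 or below, and those for Bcl6 lie on both sides of 0.

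Compared by FPKM, which is per gene length, the order of the 10 genes differed between the groups. In WT the order of mean level was Tbx21, Nfil3, Eomes, Id2, Bhlhe40, Irf4, Batf, Bcl6, Prdm1 and Zeb2. Neighbours in this order overlapped in their ranges except Batf and Bcl6, but Irf4 spread widely enough to overlap both Bcl6 and Prdm1. In KO the order was Id2, Nfil3, Batf, Bcl6, Bhlhe40, Tbx21, Irf4, Prdm1, Eomes and Zeb2. Here Id2 stood alone at the top without overlap with Nfil3, Nfil3 stood above Batf though it overlapped Bcl6, and Eomes and Zeb2 lay below Prdm1, although Eomes overlapped Irf4. Tbx21 thus went from 1st to 6th and Eomes from 3rd to 9th, while Id2 went from 4th to 1st.

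Among all 716 transcription factor genes tested (as the deposited family column names them), 106 were lower and 93 higher in KO, with a median log2 fold change of 0.26. Counted from the lowest log2 fold change, Eomes was in place 8, Tbx21 in place 14, Bhlhe40 in place 33, Irf4 in place 41 and Nfil3 in place 45. Batf, Zeb2, Prdm1, Bcl6 and Id2 followed in places 81, 83, 93, 239 and 391. Without the 10 genes, 14.02% of the other 706 were lower. The families of the members were counted after their values had been seen. Of the other 35 bZIP genes, the family of Batf and Nfil3, 15 were lower and 0 higher (median -0.83), with 17 and 1 at an unadjusted limma p under 0.05 and 15 and 0 by voom. Of the other 31 bHLH genes, the family of Bhlhe40 and Id2, 3 were lower and 9 higher (median 0.70), and of the other 323 zf-C2H2 genes, the family of Prdm1 and Zeb2, 23 were lower and 43 higher. Of the other 3 T-box genes 1 was higher, of the other 7 IRF genes 2 were lower, and of the other 33 ZBTB genes 2 were higher and 5 lower.

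Among factors that work with the 10 members some fell and some rose. Of 25 listed partners 20 were tested, of which 9 were lower, 4 higher and 7 neither (median log2 fold change -0.84), with 2 higher on leaving out KO 1 or KO 3. Hopx, a cofactor raised by T-bet in persisting type 1 helper cells, went from 34.6 to 0.130 FPKM (log2 fold change -4.93, SE 0.30, limma, adjusted p = 0.000271). The AP-1 gene Fos went from 271 to 9.40 FPKM (-4.69, SE 0.35, limma, adjusted p = 0.000415), and the nuclear receptor gene Nr4a3 from 8.81 to 0.175 (-3.04, SE 0.28, limma, adjusted p = 0.000767). Ikzf2, Ahr and Tox, named after their values were seen, were among the 4 that rose. Of 14 paralogs of the members only 6 were high enough to be tested and 0 passed (median 0.50), with 1 lower (Irf8) and 2 higher (Id1 and Zeb1) at an unadjusted limma p under 0.05. By voom 0 of these paralogs passed in either direction, and without WT 2 the limma count was 2 lower and 3 higher.

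Genes that the 10 factors are known to control were mostly lower. Of 25 listed effector genes 24 were tested, of which 20 were lower, 3 higher and 1 neither, with a median log2 fold change of -3.24. Klrd1, the CD94 chain of NK receptors on cytotoxic cells, went from 154 to 1.08 FPKM (log2 fold change -6.21, SE 0.35, limma, adjusted p = 0.000259), and Fasl, the death ligand, from 56.9 to 0.375 (-5.34, SE 0.34, limma, adjusted p = 0.000292). S1pr5, an exit receptor under control of T-bet and Zeb2, went from 4.92 to 0.0237 FPKM (-2.52, SE 0.20, limma, adjusted p = 0.000479), and Cxcr3, a chemokine receptor and T-bet target, from 44.5 to 2.35 (-3.78, SE 0.30, limma, adjusted p = 0.000480). The 3 that rose, named after their values were seen, were Gzma (30.5 to 590 FPKM), Pdcd1 (0.718 to 2.997) and Il10 (0.647 to 3.49), and Lag3 (4.04 to 5.05) was the 1 that did neither. Gzma is also in the NK marker list, and NK cells express many of these effector genes, so the values of NK markers given above stand beside this count.

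Genes of the naive and progenitor state, which the effector factors oppose, moved in both directions. Of 15 listed and tested 7 were lower, 2 higher and 6 neither (median log2 fold change -0.62), against 7 lower and 5 higher without WT 2. The count was 4 lower and 2 higher without KO 2 or under the replicate block, and 3 lower and 4 higher under TPM. Klf2, a factor of quiescent and recirculating T cells, went from 650 to 6.88 FPKM (-6.41, SE 0.45, limma, adjusted p = 0.000340). The lymph node homing receptor gene Ccr7 and the exit receptor gene S1pr1 fell as well, with Ccr7 going from 358 to 3.18 FPKM (-6.32, SE 0.50, limma, adjusted p = 0.000499) and S1pr1 from 66.1 to 0.564 (-5.31, SE 0.44, limma, adjusted p = 0.000562). Myb, a factor of hematopoietic progenitors and thymocytes, rose from 7.68 to 72.4 FPKM (3.22, SE 0.48, limma, adjusted p = 0.00423), as did the E protein gene Tcf12 (named after its values were seen). Tcf7, which encodes TCF-1 of naive and stem-like T cells, was 211 FPKM in WT and 493 in KO without overlap, but did not pass (1.35, SE 0.50, limma, adjusted p = 0.0962). The log2 ratio of Tbx21 to Tcf7 went from -2.19 ± 0.663 to -8.10 ± 0.934, and that of Prdm1 to Tcf7 from -5.89 ± 0.356 to -9.20 ± 0.219 (SD, n = 3 each). Neither ratio overlapped between the groups, and both had p = 0.1, the smallest the exact permutation test allows (adjusted p = 0.3 over 9 ratios).

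Receptors and STAT genes that feed the 10 factors moved in both directions. Of 22 listed and tested 9 were lower, 3 higher and 10 neither (median log2 fold change -0.58), against 13 lower and 6 higher without WT 2. Leaving out any 1 KO library gave 4 lower and 2 higher, the replicate block 5 lower and 3 higher, and TPM 3 lower and 3 higher. Il2ra, the alpha chain of the IL-2 receptor, rose from 1.30 to 230 FPKM (6.71, SE 0.31, limma, adjusted p = 0.000233). The receptor genes Il4ra (72.3 to 1.66 FPKM, -4.78, SE 0.27, limma, adjusted p = 0.000259), Il18r1 (88.4 to 0.406, -5.84, SE 0.46, limma, adjusted p = 0.000492) and Il6ra (15.9 to 0.133, -3.77, SE 0.42, limma, adjusted p = 0.00156) fell. The other inputs that rose were Stat5a and Il12rb1, named after their values were seen.

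**Figure D5:**
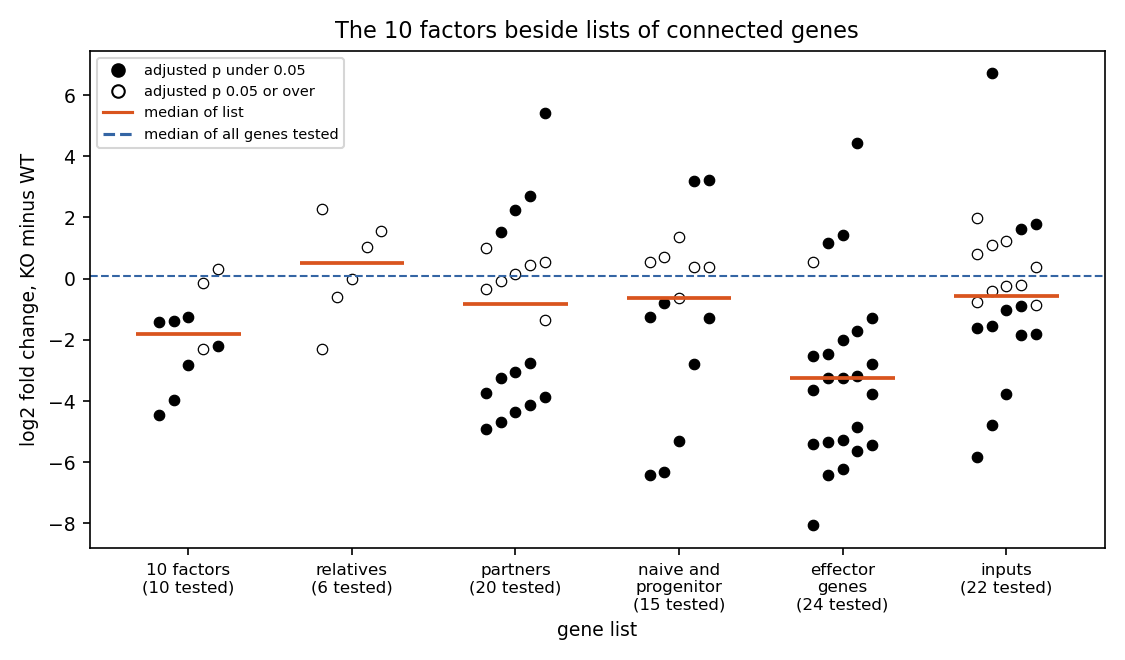
Log2 fold change, KO minus WT, of every tested gene of each list (points, filled where the limma adjusted p was under 0.05), with the median of the list (orange bar) and of all 13393 genes tested (dashed line, 0.09). Medians are -1.80 for the 10 factors, 0.50 for relatives, -0.84 for partners, -0.62 for naive and progenitor genes, -3.24 for effector genes and -0.58 for inputs.

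Genes next to the members on the chromosome were examined to see how far the differences reached beyond them. Of the 20 nearest tested neighbours, 1 on each side, 2 were lower and 2 higher past the threshold. Over all genes tested the shares were 13.3% lower and 13.1% higher, so the neighbours did not stand out in number. The processed pseudogene Gm11573 lies 745 bases from Tbx21 and had 15, 10 and 23 reads in WT and 0 in each KO library, at least 6.15-fold lower against a floor of 3 reads per library. Reads of a processed pseudogene can be shared with its parent gene, so its value is uncertain. On the other side of Tbx21, Tbkbp1 at 20840 bases showed -0.38 on the log2 scale (limma, adjusted p = 0.552). Near Nfil3, Gm33424 was lower (-1.62, limma, adjusted p = 0.0324) and Auh higher (1.32, limma, adjusted p = 0.00651), and Prep, the neighbour of Prdm1 at 538702 bases, was higher (1.94, limma, adjusted p = 0.00136). The groups did not overlap, without a call, for Atg5 (-0.22), Kidins220 (0.69), Arl8b (0.37), Exoc2 (1.32), Erg28 (0.58) and Rtp4 (0.86). Groups without overlap were found for 49.1% of all genes tested, so this is no trait of the neighbours.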

How the data were processed

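RNA of BM cells was extracted with Trizol, libraries were made with a NEBNext kit, and paired-end reads were taken on a NovaSeq instrument. The submitters' processing notes name HISAT2 2.0.5, featureCounts 1.5.0-p3 and build GRCm38. The deposited values are FPKM per gene and library, computed by the authors. The method of their library scaling and the use of strand in counting are not given in the sources used here. Multiplied by gene length, 100% of the FPKM values were whole multiples of 1 step (tolerance 0.01). Reads recovered this way came to 0.827 to 1.55 times the library size used, with 1.55 in WT 2. At a floor of 3 reads, a gene without reads could have had 0.161 to 0.255 RPM, counting error only. Coordinates equalled those of GENCODE M21 on GRCm38 for 53585 of 54532 genes, including all 10 members, and 0 value columns belonged to no sample.

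Values were taken as log2(FPKM + 1), on which the fold change of low genes is understated, and tested with limma 3.58.1 in R 4.3.3 (lmFit, eBayes with trend, two-sided) over the 13393 genes that reached 1 FPKM in 3 or more of the 6 libraries, with Benjamini-Hochberg adjustment and a threshold of 0.05. The study itself used a count model. Ratios of 2 genes used log2 of FPKM plus 0.1 and exact permutation tests, for 9 pairs. Fits were tested on simulated data. The members and lists were chosen with earlier results of these data known. The lists were written from general knowledge as paralogs, partners, effector genes, naive and progenitor genes, inputs and cell type markers. Named are the members, genes of ratio pairs, the 4 genes of smallest limma p among those past the threshold in a list, the first 3 of each marker list, and nearest neighbours whose groups do not overlap. Results for 3 genes under this rule are not reported here. Alternatives were another pseudocount, 2 other filters, 3 other scalings, eBayes without trend, array weights, a replicate block, voom on recovered reads, and leaving out each library.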

Additional observations from a re-analysis of the deposited data

How the results depend on the processing

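The count of members lower in KO (7 as reported) was 3 under TPM, and ranged from 5 to 8 on leaving out single libraries. A mean FPKM of at least 5, which removes Prdm1, Zeb2 and Bcl6, and no filter both gave 5. The replicate block gave 6 members, losing Batf, and 1469 genes lower and 1207 higher over all genes. The labels do not say whether same-numbered WT and KO libraries share a litter or a preparation. Same-numbered libraries deviated with r of 0.10, 0.10 and -0.15, and not every library correlated best with its own number. These values cannot decide whether the libraries are paired, so the paired fit is given beside the unpaired one.

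Over all genes, 1785 were lower and 1754 higher as reported. The counts were 1051 lower and 786 higher at a mean FPKM of at least 5, 1081 lower and 2279 higher under TPM, and 4073 lower and 4388 higher with array weights. On leaving out 1 library they ranged from 996 to 3383 lower and from 938 to 3584 higher, with both highest values without WT 2. The log2 fold change of Bcl6 turned to 0.59 under TPM and ranged from -0.50 to 0.34 on leaving out 1 library, with 0.14 without WT 1 and 0.34 without KO 3. The difference in log2 ratio turned to -0.027 for Irf4/Irf8 and to -0.70 for Batf/Batf3 at a pseudocount of 1. It ranged from -0.65 to 1.04 for Irf4/Irf8 (-0.45 without WT 1, -0.65 without KO 1, -0.28 without KO 2) and from -0.31 (without WT 2) to 0.86 for Batf/Batf3. The difference also moved at a pseudocount of 1 for Zeb2/Zeb1 (-4.99 to -2.39), Prdm1/Tcf7 (-3.31 to -2.61), Prdm1/Bcl6 (-1.76 to -1.13) and Tbx21/Eomes (1.91 to 0.50). On leaving out 1 library it ranged from 1.00 (without KO 2) to 2.80 (without KO 1) for Tbx21/Eomes, from -3.31 (without WT 2) to -1.04 (without WT 1) for Id2/Id3, and from -2.33 to -1.17 for Prdm1/Bcl6. The cause was not tested. At 1 to 36 reads per KO library for Eomes and 6 to 8 for Zeb2, depth limits how far below WT these genes can be placed.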
